A study of Mus musculus with 2 samples.

Results

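Collagen genes encode the chains of the triple-helical proteins that hold the bladder wall together, and they were taken here as every protein-coding gene whose symbol is Col, a number, the letter a and a number. The mouse annotation held 44 such genes among 21938 protein-coding genes: 11 for fibrillar collagens, 6 for the type IV collagens of basement membranes, and 27 for all other types. The chromatin at these genes was read by DNase-seq, in which the enzyme DNase I cuts DNA where it is not wrapped in nucleosomes, so that a peak of cuts marks accessible DNA and a short protected stretch inside it, a footprint, marks DNA that may be covered by a bound protein. The study had 1 group of 2 libraries of urinary bladder, taken at 14 days of age from male mice of B6CASTF1/J, the first-generation hybrid of C57BL/6J and CAST/EiJ. Replicate 1 is labelled as tissue of a male, replicate 2 as a pool of 3 males, neither carried a treatment or an engineered allele, and no control group was part of the design, so that every statement below is a description with the spread between the replicates and no test between conditions.

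Fibrillar collagens such as types I, III and V assemble into the rope-like fibrils of the lamina propria and of the sheaths around muscle bundles, and give a distensible organ its tensile strength. Type IV collagens form the sheet-like network under epithelia and around smooth muscle cells and vessels, and their 6 genes lie in pairs whose members are transcribed away from each other. The remaining types link or coat fibrils, form beaded filaments around cells, anchor epithelia or span the plasma membrane. In bladder wall, fibroblasts and smooth muscle cells are the usual sources of the interstitial types.

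A peak region was called shared where peaks of both replicates overlapped by at least 1 bp, and a gene's promoter was called open where a shared region lay within 1 kb of any of its annotated transcription start sites (TSSs). The deposited peak lists held 139821 peaks in replicate 1 and 82225 in replicate 2, which merged to 73164 shared regions, and the footprint lists held 331596 and 200630 footprints. The peak signal is the authors' own value for each peak. Its smallest step was 0.00521 in replicate 1 and 0.00799 in replicate 2, so that a signal of 1 stood for 192 and 125 steps, and the number of reads in each library is not known from these files. In the whole bladder, less signal at a gene can reflect fewer cells of a type or less accessible DNA in each cell, and these cannot be told apart. Among marker genes of cell types, the promoters of all 12 urothelial, all 10 smooth muscle and all 10 fibroblast markers were open, and those of 6 hepatocyte markers were not, where 66.1% of all protein-coding genes were open. The fibroblast list includes Col1a1 and Col1a2, which are themselves among the collagen genes described here. Other lists were mixed: 6 of 8 cartilage markers (75.0%) but only 4 of 8 endothelial markers were open, and the endothelial markers Pecam1 and Emcn had no promoter peak in either library.

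Of the 44 collagen genes, 34 had an open promoter (77.3%), against 66.1% of all protein-coding genes. Collagen genes were longer (median 114.4 against 17.4 kb), and the shares were closer at like length. Under 50 kb 53% of collagen genes were open against 60% of all genes. From 50 to 150 kb the shares were 89% and 85%, and over 150 kb 91% and 86%. All 6 type IV genes were open, as were 10 of the 11 fibrillar genes and 18 of the 27 others. Within the last group the open genes were 5 of 6 type VI genes, 6 of 9 genes of fibril-associated collagens, 3 of 4 transmembrane collagens, 1 of 3 genes of types VIII and X, both multiplexins and 1 of 3 genes of types VII, XXVI and XXVIII. Replicate 1 alone gave 38 genes, with 70.5% of all protein-coding genes as background, and replicate 2 alone gave 35, with 66.9%. In the authors' stricter peak lists 29 collagen genes were open against 61.8% of all genes, so that the share of collagen genes, 65.9%, was then close to the background. With only the stronger 50% of each replicate's peaks, 22 collagen genes were open, including 3 of the 6 type IV genes, and the share of 50% was then below the background of 59.2%. When only the start of each gene's principal transcript was used, the count stayed at 34 and the background was 62.1%. A shared region lay directly over a TSS in 27 genes (61.4%), where 57.7% of all genes had one.

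The openings were weak. Among the 34 open collagen genes the median promoter signal was 1.82 in replicate 1 and 1.31 in replicate 2, a median of 1.46 over the gene means (SD of the replicate medians 0.36, n = 2). All 14500 open protein-coding genes had medians of 5.01 and 4.19 and a median of 4.61 over the gene means (SD 0.58, n = 2). In mean signal 2 collagen genes, Col6a2 and Col16a1, exceeded that value. The Col1a1 region with the highest mean did so in replicate 2 alone, while another Col1a1 promoter region, in intron 1, had 5.04 in replicate 1. Open fibrillar genes had a median of 2.09, ranging from 0.577 to 4.52; type IV genes one of 1.43, ranging from 0.420 to 2.27; and the others one of 1.24, ranging from 0.436 to 6.43. These ranges overlapped, and as genes are not replicates of a class, the order of the class medians was not tested.

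**Figure D1:**
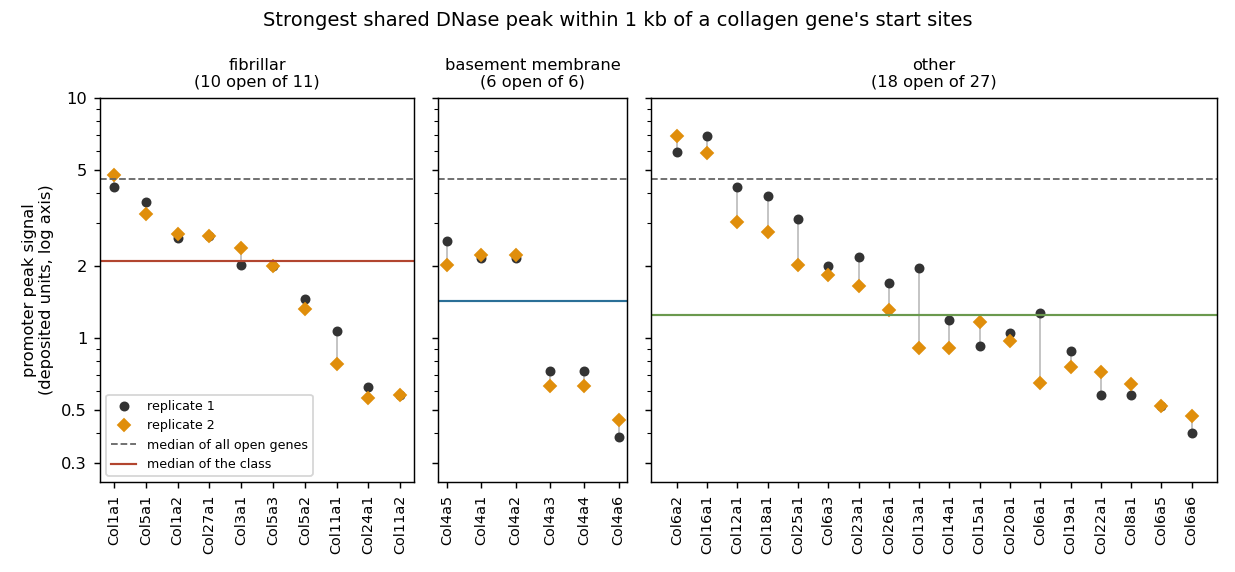
Signal of the strongest shared DNase peak within 1 kb of a TSS for each of the 34 collagen genes with an open promoter, in deposited units on a log axis, by class; circles are replicate 1, diamonds replicate 2, the coloured line is the median of the class and the dashed line the median of 4.61 over all open protein-coding genes. The symbols of 2 genes, Col6a2 and Col16a1, lie above the dashed line in both replicates and that of Col1a1 in replicate 2, and most genes of each class lie well below it.

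Among the fibrillar genes, Col1a1 had the highest promoter signal, 4.27 in replicate 1 and 4.77 in replicate 2. It encodes the major chain of type I collagen, and the gene (ENSMUSG00000001506.10) spans chr11:94936224-94953042 on the plus strand of mm10. Its partner Col1a2 had 2.60 and 2.72, in a single promoter region. Col5a1, whose type V chain is built into type I fibrils and limits their diameter, had 3.68 and 3.29. Col27a1, a minor fibrillar collagen, had 2.65 and 2.67. Col3a1, the single chain of type III collagen found beside type I in distensible tissue, had 2.00 and 2.37. Col5a3 followed with 2.00 and 1.99. The replicates differed by little in these genes, the SD of each pair being between 0.00614 for Col5a3 and 0.35 for Col1a1, and so the rank of Col1a1 and Col5a1 above the other 4 held in both libraries while Col1a2 and Col27a1 could not be placed in order. The lower fibrillar genes were Col5a2 at 1.45 and 1.32, Col11a1 at 1.07 and 0.775, Col24a1 at 0.625 and 0.560, and Col11a2 at 0.578 and 0.576.

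Col2a1, the cartilage fibril collagen, was the only fibrillar gene without a shared promoter region, having a peak of 0.437 in replicate 1 and none in replicate 2. Grouped by the tissue a collagen is best known from, all 11 genes of interstitial stroma (Col1a1, Col1a2, Col3a1, Col5a1, Col5a2, Col6a1, Col6a2, Col6a3, Col12a1, Col14a1 and Col16a1) were open, with a median signal of 2.66. Of the 7 cartilage collagen genes only Col11a1 and Col11a2 were open. Both genes of epithelial attachment collagens, Col7a1 of the anchoring fibrils and Col17a1 of the hemidesmosome, lacked a shared promoter region. These lists were drawn up with results of these libraries known, so the counts do not stand as independent evidence.

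The type I gene Col1a1 carried the densest set of regions of the family, 10 shared regions in a window of the gene and 10 kb on each side, which is 27.2 per 100 kb. Its promoter region was also the shortest among the collagen promoters, at 80 bp, and held a TATA box inside a footprint merged from both replicates, as printed below. A region in intron 1, with its centre 0.957 kb from the gene start, had 5.04 and 3.45, and one centred at -7.24 kb, upstream of the start, had 5.59 and 5.18, so that in both replicates the upstream region was stronger than the region at the start. Within 1 kb of its TSSs Col1a1 had 10 shared footprints, the most of any collagen gene, ahead of Col18a1 and Col23a1 with 7 each and of Col4a1, Col4a2 and Col12a1 with 6 each. By contrast Col3a1 had 1 shared region in all and 1 shared footprint. Its window held 9 peaks in replicate 1 but 1 in replicate 2, where that of Col1a1 held 15 and 19. Within 1 kb of its TSSs Col3a1 had 6 footprints in replicate 1 and 2 in replicate 2.

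The promoter regions of the 4 collagen genes with the highest signals are given 5′ to 3′ on the strand of the gene, from the mm10 reference (RefSeq GRCm38.p6), which is a C57BL/6J sequence and not that of the CAST/EiJ allele. Capitals mark the footprints found in both replicates, each drawn over the joint extent of the overlapping footprints. A motif in such a merged footprint need not lie in a footprint of each replicate. They lie at chr10:76623341-76623560 on the minus strand for Col6a2, chr4:130047741-130047920 on the plus strand for Col16a1, chr11:94936161-94936240 on the plus strand for Col1a1, and chr9:79718621-79718860 on the minus strand for Col12a1.
Col6a2: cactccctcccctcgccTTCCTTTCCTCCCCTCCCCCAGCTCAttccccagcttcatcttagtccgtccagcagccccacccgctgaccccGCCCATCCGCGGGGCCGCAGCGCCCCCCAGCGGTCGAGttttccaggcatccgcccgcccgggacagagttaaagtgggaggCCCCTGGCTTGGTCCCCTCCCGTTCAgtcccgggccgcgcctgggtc
Col16a1: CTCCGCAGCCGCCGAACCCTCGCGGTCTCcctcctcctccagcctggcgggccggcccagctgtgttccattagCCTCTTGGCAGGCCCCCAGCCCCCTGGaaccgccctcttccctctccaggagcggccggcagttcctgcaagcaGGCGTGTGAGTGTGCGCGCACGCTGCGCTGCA
Col1a1: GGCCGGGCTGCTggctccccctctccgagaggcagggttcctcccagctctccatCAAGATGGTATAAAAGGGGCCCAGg
Col12a1: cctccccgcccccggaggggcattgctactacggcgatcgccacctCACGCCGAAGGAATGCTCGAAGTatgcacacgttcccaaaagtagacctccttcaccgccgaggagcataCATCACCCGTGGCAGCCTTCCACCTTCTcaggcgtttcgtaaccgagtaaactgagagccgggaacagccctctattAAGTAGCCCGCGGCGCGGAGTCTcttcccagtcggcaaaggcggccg
The GC content of these stretches was 70.5%, 71.1%, 65.0% and 61.3%. The second merged footprint of Col1a1 contained TATAAA, the TATA box. Of the 3 GC boxes (GGGCGG or its complement) in the Col6a2 stretch, 1 crossed the edge of a footprint and the others lay outside. The single GC box of the Col16a1 stretch and that of the Col12a1 stretch lay outside the footprints.

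Col6a2 and Col16a1 headed the other collagens. Col6a2, which encodes a chain of type VI beaded filaments around cells, had promoter signals of 5.95 and 6.91, and this was its only shared region in the gene and 10 kb on each side. Col16a1, a fibril-associated collagen, had 6.94 and 5.91 together with 8 shared regions, 11.2 per 100 kb. The replicates ranked these genes in opposite order, so neither stood above the other. Col12a1, another fibril-associated collagen, had 4.26 and 3.05. Col18a1, a basement membrane proteoglycan whose tail is released as endostatin, had 3.90 and 2.75, Col25a1, a transmembrane collagen of neurons and muscle, had 3.12 and 2.01, and Col6a3, the largest type VI chain, had 2.00 and 1.83.

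The 3 chains that build the common type VI molecule had unlike promoters. Against the values of Col6a2 and Col6a3, Col6a1 reached 1.27 in replicate 1 and 0.648 in replicate 2, and was not open in the stricter lists. Its surroundings were rich in other regions: within 10 kb it had 6 shared regions, 16.1 per 100 kb, of which the one centred at -2.39 kb from the start had 4.77 and 2.73, and those at -7.28 and -9.05 kb had 3.24 and 2.39, and 3.06 and 2.39. In each replicate these 3 upstream regions were stronger than the Col6a1 promoter. Of the remaining type VI genes, which encode alternative long chains, Col6a5 had 0.521 and 0.520, Col6a6 had 0.401 and 0.472, and Col6a4 had no promoter peak.

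Outside the genes named so far, the open genes of the other types lay between 0.609 and 1.91 in mean signal. They were the transmembrane collagens Col23a1 (2.18 and 1.65) and Col13a1 (1.96 and 0.903), Col26a1 (1.69 and 1.30), the fibril-associated Col14a1 (1.19 and 0.911), Col20a1 (1.05 and 0.967), Col19a1 (0.885 and 0.760) and Col22a1 (0.578 and 0.720), the multiplexin Col15a1 (0.927 and 1.17), and Col8a1 (0.578 and 0.640). Col13a1 had the widest relative gap between the replicates among these.

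In 5 genes no peak lay within 1 kb of a TSS in either library, and no position there passed a false discovery rate of 0.05 in the authors' deposited track: Col6a4, the anchoring fibril gene Col7a1, the cartilage genes Col9a1 and Col9a2, and Col10a1 of growth plate cartilage. Replicate 1 alone had a promoter peak at Col2a1, at Col8a2 (0.963), at the hemidesmosome gene Col17a1 (0.458) and at Col28a1 (0.432), and replicate 2 alone at Col9a3 (0.504). Absence of a peak here means that none was detectable at the depth of these libraries. Col10a1 also had no shared region anywhere in the gene or within 10 kb, while neighbours of Col7a1 within 10 kb had promoter regions of their own, at Uqcrc1 (2.94 on average) and Pfkfb4 (7.59 on average).

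In 4 of the open genes the strongest promoter region was not at the start of the principal transcript but at an internal annotated TSS. For Col18a1 it lay 52.5 kb into the gene, and the region at the principal start had 2.04 and 1.58. For Col13a1 it lay 101.1 kb in, against 0.573 and 0.752 at the principal start. For Col26a1 it lay 127.3 kb in, against 0.484 and 0.488, and for Col15a1 25.5 kb in, against 0.734 and 0.568. In all 4 genes both replicates had the higher signal at the internal site. These internal peaks fall within 1 kb of a transcript start listed by GENCODE, and whether that start is in use was not measured.

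The type IV genes showed 3 arrangements of the same design. Col4a1 and Col4a2, which encode the chains of the basement membrane network found in nearly all tissues, start 21 bp apart and overlap, and a single region of 300 bp covered both starts with 2.16 in replicate 1 and 2.21 in replicate 2. Col4a3 and Col4a4, whose chains are best known from the glomerulus of the kidney, start 72 bp apart and also shared a single region, of 610 bp, but with 0.729 and 0.632; in replicate 1 it is made of 2 adjoining peaks, of which the one over both starts had 0.677. Col4a5 and Col4a6 on the X chromosome start 1309 bp apart and had separate regions, 180 bp with 2.53 and 2.02 at Col4a5, and 460 bp with 0.385 and 0.456 at Col4a6. Col4a5 exceeded Col4a6 in both replicates, by more than the replicate SDs of 0.36 and 0.0498. The Col4a6 region was missing from the stricter lists. The libraries are from males, which carry 1 X chromosome. Protein-coding genes of that chromosome had a median signal of 2.32 where open, against 4.74 on the autosomes. Their share of open promoters was also lower, 47.3% against 67.5%. Whether the number of X copies has a part in these values was not tested.

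**Figure D2:**
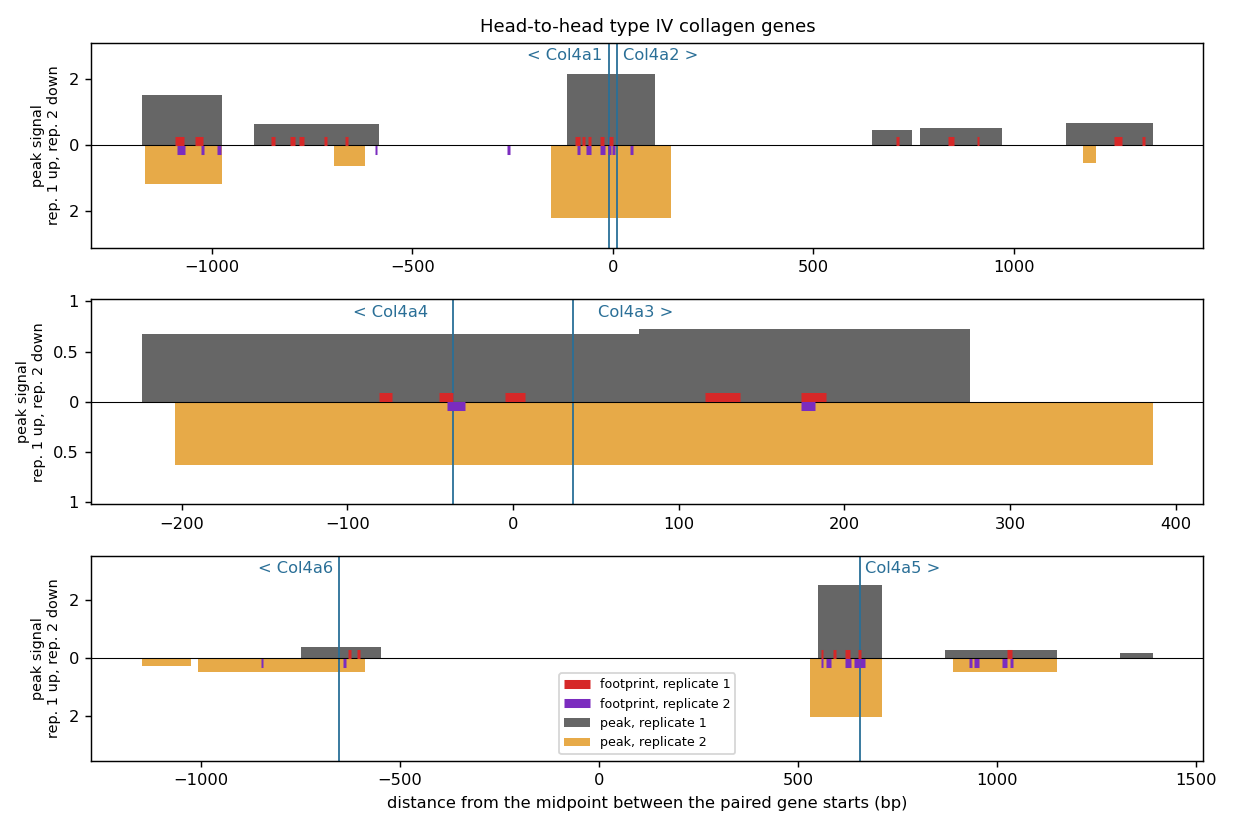
DNase peaks and footprints around the starts of the 3 head-to-head type IV gene pairs; the horizontal axis is the distance in bp from the midpoint between the starts (vertical lines, with arrows for the direction of transcription), bars above and below 0 are peaks of replicate 1 and replicate 2 with their signal as height, and the short marks are the footprints of each replicate. A single region spans both starts of Col4a1 and Col4a2 (2.16 and 2.21) and of Col4a3 and Col4a4 (0.729 and 0.632, with 2 adjoining peaks in replicate 1), whereas Col4a5 and Col4a6 have separate peaks of unequal height.

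The type IV stretches are shown because the pairs share them or, at Col4a5 and Col4a6, do not. Capitals again mark merged footprints of both replicates. They lie at chr8:11312661-11312960 and chr1:82586816-82587115 on the plus strand for the shared regions, the latter the central 300 of 610 bp, at chrX:141475261-141475440 on the plus strand for Col4a5, and at chrX:141473801-141474100 on the minus strand for Col4a6, the central 300 of 460 bp.
Col4a1/Col4a2: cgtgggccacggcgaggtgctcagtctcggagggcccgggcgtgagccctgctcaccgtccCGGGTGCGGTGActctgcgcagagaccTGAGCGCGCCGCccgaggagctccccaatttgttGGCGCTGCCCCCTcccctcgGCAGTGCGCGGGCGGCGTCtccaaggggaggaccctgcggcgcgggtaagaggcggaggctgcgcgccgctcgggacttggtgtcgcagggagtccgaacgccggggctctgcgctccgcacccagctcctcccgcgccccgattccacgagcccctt
Col4a3/Col4a4: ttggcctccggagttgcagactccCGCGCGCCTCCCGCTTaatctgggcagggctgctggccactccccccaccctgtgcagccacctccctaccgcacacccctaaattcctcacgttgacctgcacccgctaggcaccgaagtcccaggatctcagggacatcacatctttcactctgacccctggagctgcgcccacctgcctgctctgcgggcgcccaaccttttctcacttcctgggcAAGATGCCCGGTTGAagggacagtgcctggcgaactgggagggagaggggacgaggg
Col4a5: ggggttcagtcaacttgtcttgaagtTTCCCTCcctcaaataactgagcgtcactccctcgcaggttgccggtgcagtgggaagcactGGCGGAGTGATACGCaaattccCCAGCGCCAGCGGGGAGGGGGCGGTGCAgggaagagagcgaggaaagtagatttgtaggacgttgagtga
Col4a6: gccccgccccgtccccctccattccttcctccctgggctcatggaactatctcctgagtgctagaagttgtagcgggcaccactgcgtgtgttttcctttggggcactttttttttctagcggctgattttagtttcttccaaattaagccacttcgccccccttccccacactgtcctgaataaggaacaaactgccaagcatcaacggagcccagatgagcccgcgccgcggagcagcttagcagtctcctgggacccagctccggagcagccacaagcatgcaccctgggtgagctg
The Col4a1 and Col4a2 stretch was the most GC-rich of the 4, at 74.0% with 38 CpG dinucleotides, and held 4 merged footprints. Of its 2 GC boxes, 1 lay wholly in a merged footprint, but wholly in no single footprint of either replicate. The other crossed the edge of a merged footprint. The Col4a3 and Col4a4 stretch had 64.3% GC, 15 CpG dinucleotides, 2 footprints and no GC box. The Col4a5 region held 3 merged footprints, and its GC box lay in the longest of them. There the box lay in a footprint of replicate 2 and outside those of replicate 1. The Col4a6 stretch had a GC content like that of Col4a5, 57.3% against 57.2%, and a GC box, but no footprint found in both replicates.

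Behind the starts, the pairs differed in how many regions lay along the genes. Col4a2 had 20 shared regions in the gene and its flanks, more than any other collagen gene, and 12.8 per 100 kb. Its partner Col4a1 had 10, or 7.44 per 100 kb, of which 4 were counted for both genes. The strongest of the Col4a1 regions away from TSSs lay in intron 2, 59.2 kb from the start, with 3.16 and 2.27, and that of Col4a2 in intron 4, 80.2 kb from the start, with 2.68 and 1.92. Col4a3 had 6 and Col4a4 5 regions, of which 2 were counted for both genes. Col4a6, a gene of 308.7 kb, had 9 in the gene and its flanks, and Col4a5 had 3. Those 3 lay near the starts of the pair and were counted for both genes.

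The promoters were also described by their CpG content. A promoter was called CpG-rich where the 1 kb around the gene start had at least 50% GC and a ratio of observed to expected CpG of at least 0.6; this was so for 11 collagen genes (25.0%) and for 44.4% of all protein-coding genes, a difference that was not tested; 2 of the 12 urothelial and 2 of the 10 fibroblast markers were CpG-rich. Of the 11, 9 were open with a median signal of 2.18, while 96.4% of the 9740 CpG-rich genes were open with a median of 5.90. Of the 33 collagen genes that were not CpG-rich, 25 were open (75.8%) with a median of 1.01, where 41.9% of the 12198 such genes were open with a median of 2.56. The CpG content is that of the gene start, while the signal is that of the strongest region at any TSS. For Col13a1, Col15a1 and Col26a1, among the 9, these lay 101.1, 25.5 and 127.3 kb apart. In the other stratum, they lay 52.5 kb apart for Col18a1 and 49.25 kb for Col25a1. In both strata the collagen median was below that of all open genes, while the share of open promoters was lower than that of all genes in the CpG-rich stratum and higher in the other. The strongest collagen promoters, Col6a2, Col16a1 and Col1a1, were all in the stratum that was not CpG-rich. Their ratios in the 1 kb around the gene start were 0.428, 0.456 and 0.301, and Col1a2 and Col3a1 had ratios of 0.198 and 0.179. The accessible regions are shorter than this window. Those of Col6a2, Col16a1 and Col1a1, of 220, 180 and 80 bp, held 17, 15 and 2 CpG dinucleotides at 70.5%, 71.1% and 65.0% GC.

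**Figure D3:**
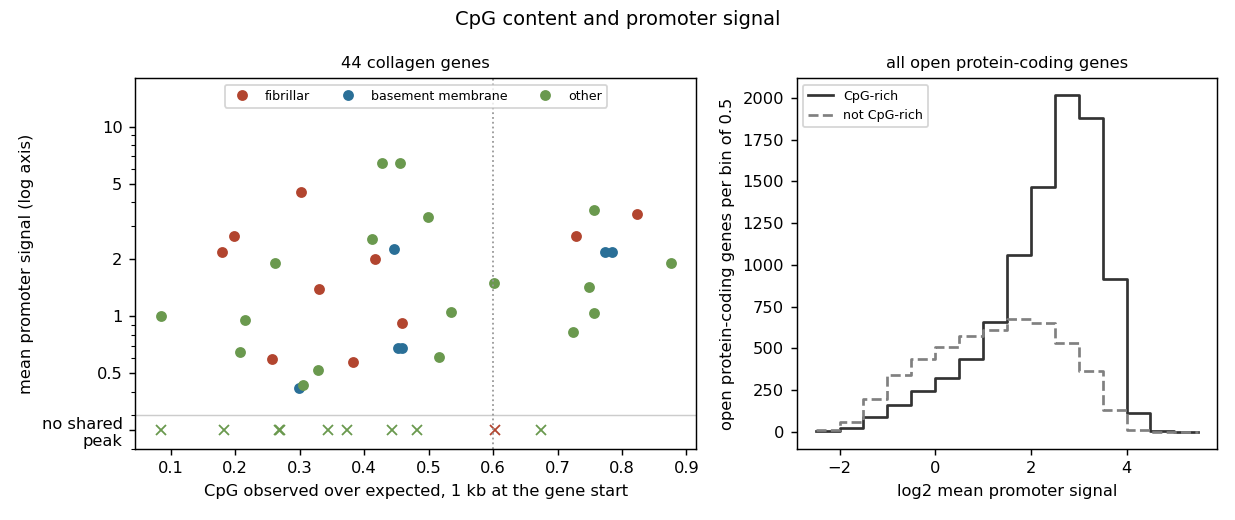
Left, the ratio of observed to expected CpG in 1 kb at the gene start against the mean promoter signal of the replicates (log axis) for the 44 collagen genes, coloured by class, with crosses for the 10 genes without a shared promoter peak and a dotted line at the ratio of 0.6; right, how many open protein-coding genes fall in each bin of log2 mean promoter signal, CpG-rich or not. The signal is that of the strongest shared region within 1 kb of any TSS, which can lie far from the gene start. The strongest collagen promoters lie to the left of the dotted line, and the collagen genes to its right do not reach the signals near which the CpG-rich genes of the genome are most frequent.

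In the 300 bp promoters (250 bp before the gene start to 50 bp after it, either strand), the GC box GGGCGG was found in 23 collagen genes (52.3%) and in 43.0% of all 21938 promoters, and CCAAT in 17 (38.6%) and 39.0%. The TATA box TATAAA was found in 6 (13.6%) and 12.7%, among them Col1a1, Col3a1, Col13a1 and Col14a1, which were open, and Col10a1 and Col17a1, which were not. The AP-1 letters TGANTCA occurred in Col6a1 alone (6.91% of all promoters), the TEAD letters ACATTCC in Col3a1 alone (3.53%), the SOX letters ACAATGG in Col12a1 alone (2.89%), and the RUNX letters TGTGGT in Col2a1, Col8a1, Col17a1 and Col25a1 (15.3%). The NFI palindrome occurred in none. No share was tested against that of all promoters, several rest on 1 gene, and a match of letters is a description and not a binding site.

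Footprints at collagen promoters were counted by gene and by region. A footprint found in both replicates lay within 1 kb of a TSS in 26 of the 44 genes (59.1%), close to the 61.9% of all protein-coding genes. With the footprints of replicate 1 alone this held for 37 of the 44 genes, against 69.2% of all genes. With those of replicate 2 alone it held for 32, against 65.2%. The 34 open genes had 32 distinct strongest promoter regions, since the paired type IV genes share theirs, and 25 of these (78.1%) held a shared footprint, with a median of 1; for all genes 92.5% of 13175 such regions held one, with a median of 3. The most in a strongest region was 4, at Col4a1 and Col4a2, Col5a1 and Col23a1. The 52 footprints in these regions held the centre of a GC box in 10 cases (19.2%, against 24.9% of 39582 footprints of all genes), and that of a TATA box and of a CCAAT box in 1 case each. The collagen regions were also weaker, and how much of the lower number of footprints goes with the weaker signal was not tested.

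Collagen genes are long, and most of their accessible regions lay inside them. In the gene and 10 kb on each side, collagen genes had a median of 5 shared regions, ranging from 0 to 20, against 3 for all protein-coding genes, and per 100 kb of window the medians were 3.78 and 4.97. The class medians were 4 for fibrillar, 7.5 for type IV and 5 for other genes. Set beside genes of like length, collagen genes of 50 to 150 kb had a median of 6.5 against 4 for the 3530 genes of that length, those over 150 kb had 5 against 7, and those under 50 kb had 3 against 2. The genes with most regions after Col4a2 were Col5a1, Col27a1 and Col14a1 with 15 each, Col15a1 with 13, and Col18a1 and Col23a1 with 12 each. The densest after Col1a1 and Col6a1 were Col4a2, Col5a3 with 12.3 per 100 kb, Col16a1 and Col27a1 with 10.6.

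**Figure D4:**
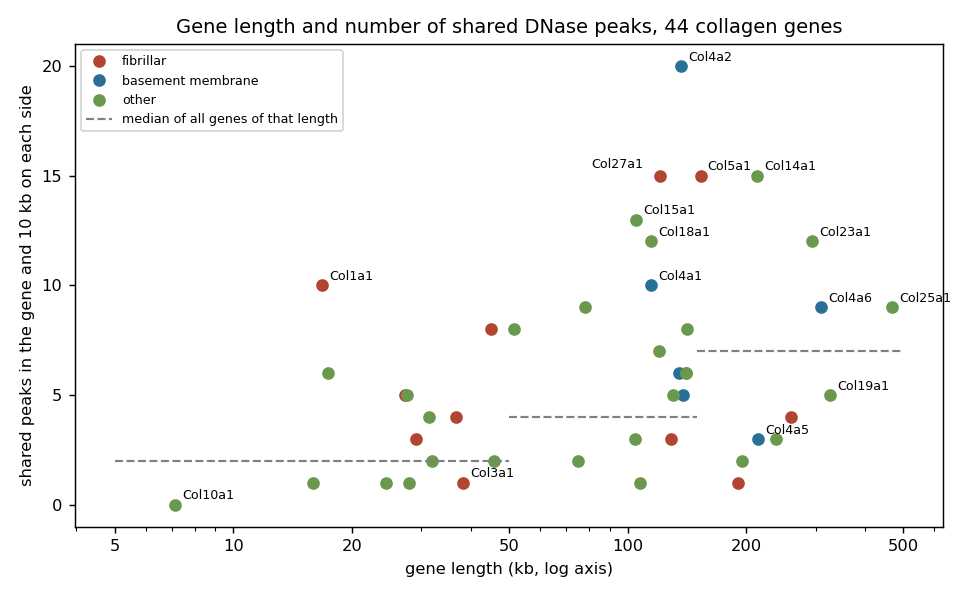
Gene length in kb (log axis) against the number of shared peaks in the gene and 10 kb on each side for the 44 collagen genes, coloured by class; dashed lines are the medians over all protein-coding genes under 50 kb, of 50 to 150 kb and over 150 kb (2, 4 and 7). Col4a2 has the most, 20, and Col10a1, the shortest gene at 7.11 kb, has none.

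The windows of the 44 genes held 261 distinct shared regions. Of these 63 lay within 1 kb of a TSS of a collagen gene whose window held them, 21 only near a TSS of another gene, and 177 away from every annotated TSS. The last group comprised 18 regions in first introns, 124 in later introns, 8 over exons, 19 in the upstream and 8 in the downstream flank. Their median signal of 0.921 was near that of all 45309 regions away from TSSs, 0.942, and 74.0% of them held a shared footprint, against 69.8%. Counted in the first, middle and last parts of a gene body cut into 3 equal lengths, regions away from TSSs inside fibrillar genes numbered 17, 13 and 5 from start to end, those inside type IV genes 6, 15 and 10, and those inside the others 20, 28 and 38. For all protein-coding genes the shares were 33.0%, 31.7% and 35.3%. Most of the 35 fibrillar regions lay in Col5a1 and Col27a1, so that their split is that of a few genes.

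In 20 of the 34 open genes (58.8%) a shared region away from every TSS exceeded the gene's strongest promoter region in mean signal, while this was so for 16.1% of the open protein-coding genes. High shares were also found in other lists: 7 of 13 open genes of collagen processing and crosslinking (53.8%), 5 of 10 smooth muscle, 5 of 12 urothelial and 3 of 4 open endothelial markers, so the trait is not shown to be particular to collagen genes. The 20 comprised 4 of 10 fibrillar genes, 5 of 6 type IV genes and 11 of 18 others. The collagen share was the higher one in each class of gene length: among genes of 50 to 150 kb it held for 12 of 16 open collagen genes and 19.4% of all open genes, among those over 150 kb 5 of 10 and 30.9%, and among shorter ones 3 of 8 and 13.3%. Among CpG-rich genes 8 of 9 open collagen genes had such a region, against 11.3% of all, and among the rest 12 of 25, against 25.0%. Collagen promoters were also weaker, and the share was not compared at matched promoter signal.

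**Figure D5:**
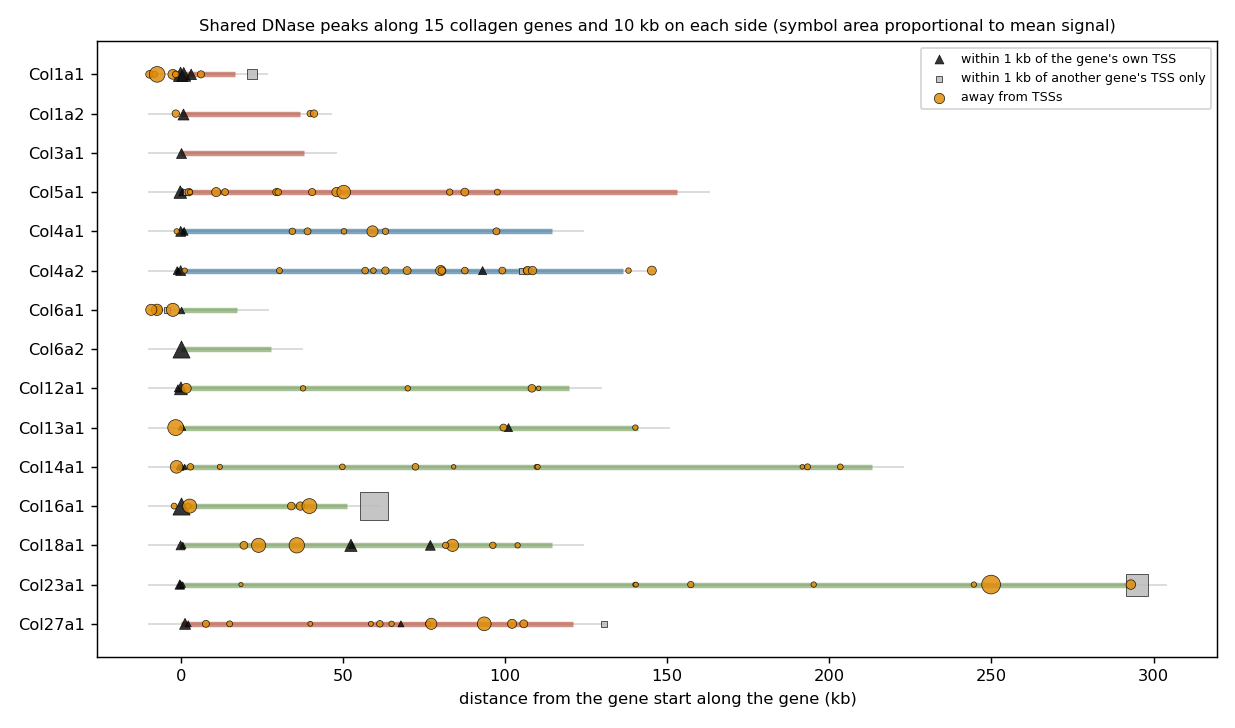
Position of shared DNase peaks along 15 collagen genes drawn from the gene start, in kb, with 10 kb on each side; the thick line is the gene (red fibrillar, blue type IV, green other), and symbol area is proportional to the mean signal of the replicates. Triangles lie within 1 kb of a TSS of the gene, squares near a TSS of another gene only, and circles away from all TSSs; the large circles at Col23a1, Col13a1, Col1a1, Col18a1 and Col16a1 are the strongest regions away from TSSs.

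The strongest of these regions lay in intron 5 of Col23a1, 249.9 kb from the gene start, with 9.82 in replicate 1 and 5.57 in replicate 2. The next lay upstream of Col13a1, at -1.52 kb, with 6.63 and 4.43, and the third was the region upstream of Col1a1 given above. Col18a1 had a pair of strong regions in intron 2, one 35.8 kb from the start with 4.75 and 5.57 and one 24.0 kb from it with 5.39 and 3.40. Col16a1 had one in intron 55, with 5.25 and 4.48, and one in intron 2, with 5.62 and 2.98. A region in intron 36 of Col27a1 had 4.67 and 3.63. Replicate 1 had the higher value in 7 of these 8 regions, and the Col23a1 pair had the widest spread (SD 3.00, n = 2), so its first place rests on replicate 1: in replicate 2 the same value of 5.57 was reached at Col18a1.

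The sequences of the first 4 are given on the strand of the gene, with capitals for merged footprints of both replicates. They lie at chr11:51539721-51539940 on the plus strand for Col23a1, chr10:61980541-61980720 on the minus strand for Col13a1, chr11:94928831-94929130 on the plus strand for Col1a1 (the central 300 of 320 bp), and chr10:77130641-77130840 on the minus strand for Col18a1.
Col23a1 intron 5: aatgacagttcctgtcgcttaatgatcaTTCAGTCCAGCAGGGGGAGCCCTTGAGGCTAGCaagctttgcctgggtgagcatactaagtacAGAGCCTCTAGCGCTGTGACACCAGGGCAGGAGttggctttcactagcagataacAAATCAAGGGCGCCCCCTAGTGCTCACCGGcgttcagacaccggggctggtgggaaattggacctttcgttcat
Col13a1 upstream: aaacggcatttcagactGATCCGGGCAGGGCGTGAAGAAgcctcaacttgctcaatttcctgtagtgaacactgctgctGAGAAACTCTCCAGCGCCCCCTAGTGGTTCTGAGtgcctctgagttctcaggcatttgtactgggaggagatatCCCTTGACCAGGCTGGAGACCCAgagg
Col1a1 upstream: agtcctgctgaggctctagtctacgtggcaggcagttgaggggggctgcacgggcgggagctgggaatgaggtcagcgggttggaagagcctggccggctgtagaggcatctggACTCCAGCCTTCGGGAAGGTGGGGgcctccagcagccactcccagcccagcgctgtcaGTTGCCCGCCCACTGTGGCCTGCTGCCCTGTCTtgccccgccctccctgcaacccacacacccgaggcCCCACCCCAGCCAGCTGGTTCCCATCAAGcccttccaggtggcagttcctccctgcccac
Col18a1 intron 2: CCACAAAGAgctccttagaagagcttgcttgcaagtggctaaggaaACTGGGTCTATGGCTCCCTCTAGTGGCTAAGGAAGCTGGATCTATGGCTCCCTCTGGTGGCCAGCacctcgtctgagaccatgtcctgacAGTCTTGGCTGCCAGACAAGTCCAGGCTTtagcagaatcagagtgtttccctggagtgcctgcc
All 4 stretches held 3 shared footprints, which covered 96, 79, 86 and 103 bases. The letters CCNCTNGTG, the core of the site of the insulator protein CTCF, lay in the Col23a1, Col13a1 and Col18a1 stretches on the printed strand, each time within a merged footprint, and not in the Col1a1 stretch, which instead held GC boxes. This core was searched for after the sequences had been read, on both strands over each whole region. It was present in 3 of the 8 strongest collagen regions and in 16.0% of the 1380 regions away from TSSs in the genome that were at least as strong, and in 24 of all 177 collagen regions (13.6%) and 9.37% of 45309. The AP-1 letters were found in the central 200 bp of 35 of the 177 regions (19.8%, against 15.3%), and the RUNX letters in 28 (15.8%, against 14.6%). None of these shares was tested against the background.

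The replicates recovered collagen regions about as well as they did others. In the windows of the 44 genes, 266 of 524 replicate 1 peaks (50.8%) overlapped a replicate 2 peak, where 54.0% did genome-wide, and 264 of 294 replicate 2 peaks (89.8%) overlapped a replicate 1 peak, where 91.0% did. At the open promoters the median log2 ratio of replicate 1 to replicate 2, after each was divided by its median over all shared regions, was -0.26 for collagen genes and -0.14 for all genes; with the signal as deposited the collagen median was 0.13, so the sign depends on the scaling.

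Genes that act on collagen chains were open to different degrees by list. Of 66 such genes in 5 lists, 56 had an open promoter, against the same background of 66.1%; the shares ran from 63.6% for collagen breakdown to all genes for chain folding. All 21 genes of chain folding and modification in the endoplasmic reticulum were open, with a median of 4.48, against 4.61 for all open genes. Of the 21, 16 (76.2%) were CpG-rich, and 96.4% of all CpG-rich genes were open, with a median of 5.90. The prolyl 4-hydroxylase subunits P4hb (16.3 and 13.3) and P4ha1 (13.4 and 12.1) and the prolyl 3-hydroxylase P3h1 (13.6 and 9.68) had the highest mean signals, each above every collagen promoter. In replicate 2, however, the cyclophilin Ppib (9.95) exceeded P3h1. Of 14 genes for propeptide cleavage and crosslinking 13 were open, led by the lysyl oxidase relative Loxl3 (3.79 and 4.35), the procollagen protease enhancer Pcolce (3.69 and 3.32) and the procollagen N-propeptidase Adamts2 (2.75 and 2.65). Loxl2 had no promoter peak.

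Of 10 regulators of fibril assembly 7 were open. Fibronectin, Fn1, had 6.45 and 5.18, the cartilage oligomeric matrix protein Comp 3.72 and 2.22, and Sparc, a collagen-binding matricellular protein, 2.52 and 2.75. Tnxb and Kera had no promoter peak, and the proteoglycan gene Bgn had one in replicate 1 alone. Of 10 collagen receptor genes 8 were open, with the integrin chain Itgb1 at 9.06 and 7.01, the discoidin receptor Ddr1 at 4.75 and 4.68 and the integrin chain Itga1 at 2.86 and 2.65. The platelet receptor Gp6 had no promoter peak and the leukocyte receptor Lair1 had one in replicate 1 alone. Of 11 genes of collagen breakdown 7 were open, led by the inhibitor Timp2 (5.47 and 6.11), the membrane-bound collagenase Mmp14 (2.89 and 2.72) and the inhibitor Timp3 (3.58 and 1.94). The secreted metalloproteinase genes Mmp3, Mmp8 and Mmp13 had no promoter peak, and the osteoclast protease gene Ctsk had one in replicate 1 alone.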

How the data were processed

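DNase-seq was made from bladder tissue in 2 libraries, the biological replicates of 1 group. Per the labels, the authors aligned reads to mm10, with an aligner and peak caller not given in the sources used here. For each library the authors deposited a looser and a stricter peak list with a signal value per peak (its normalization is not stated; every value was a whole multiple of 1 step per library within 0.01 steps), footprints, and an FDR track. The authors made this deposited track of cut-rate q-values (FDR of up to 0.05) from each library's alignments, per the deposited notes. The deposited footprint lists carry the same number, 0.01, in every row, so footprints were used as positions only.

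Here, overlapping peaks of both replicates (at least 1 bp) of the looser lists were merged to shared regions, whose signal in each replicate is that of its strongest peak. Overlapping footprints of both replicates were merged in the same way, so a merged footprint can be longer than those of either replicate. TSSs came from GENCODE M21, all transcripts; sequences from RefSeq GRCm38.p6. Interval handling was tested on simulated data. Python 3.11.15, numpy 2.4.6, pandas 2.3.3, pysam 0.24.0 and matplotlib 3.10.9 were used. All values are given as replicate 1 and replicate 2 or as mean and SD (n = 2); no p-values were computed. Whether replicate 1 came from 1 animal is not stated beyond its label. Col21a1 was not analysed here.

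Members, gene lists and rules were chosen with earlier results of these data known. Genes named with values were the 6 with the highest promoter signal per class, those without a promoter peak, all type IV genes, the 6 with most regions and the 6 with most per 100 kb, the 8 strongest regions away from TSSs, the 6 with most footprints, and from each pathway list the 3 highest and up to 3 without a peak; the other open members are given by their pair of values. The sequences away from TSSs and the CTCF core were added after the values had been seen. Alternatives were other TSS windows (500 and 2500 bp), flanks (none and 50 kb), peak lists, overlaps, transcript sets and each replicate alone.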

Additional observations from a re-analysis of the deposited data

How the results depend on the processing

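Over 9 results and 73 alternative settings, 62 stayed within 1.5 times the count or within 1 SD, and 11 moved. For the promoter signal this was the SD of the replicate medians, and for the log2 ratio the SD over the 34 open collagen genes. With only the stronger 50% of each replicate's peaks, 22 of 44 collagen genes and 3 of 6 type IV genes had an open promoter, against 59.2% of all genes. The median promoter signal of open collagen genes was 2.21 when the peaks within 1 kb were summed, 1.92 with the stricter lists, 1.91 with a window of 500 bp and 2.19 with one of 2500 bp. The first adds peaks; for the others the cause was not tested, and the wider window also takes in stronger regions, such as those of Col13a1 at -1.52 kb (5.53) and Col14a1 at -1.26 kb (3.51). The median number of shared regions was 9 with a flank of 50 kb (7 for all genes). It was 3 without regions near TSSs (1 for all genes) and 3 with the stricter lists (2 for all genes). With replicate 2 alone the median number of peaks was 5.5 (3 for all genes). With replicate 1 alone, which has more peaks, it was 11 (5 for all genes). The median log2 ratio of the replicates was 0.13 with the signal as deposited.

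The stricter lists ended the call at Col4a6, Col6a1, Col6a6, Col8a1 and Col11a2, a window of 500 bp ended it at Col6a6, Col11a2 and Col20a1, and one of 2500 bp added Col2a1 and Col9a2. Counting Col7a1, Col15a1, Col17a1 and Col18a1 as basement membrane genes gave 8 of 10 open. The starts of protein-coding transcripts and of principal transcripts, 2 alternatives chosen after seeing the data, left 34 genes open. No paired analysis was possible because the study has 1 group. The number of reads is unknown, so weak regions found in 1 replicate cannot be weighed by depth.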
